A study of Homo sapiens with 8 samples.

Results

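Sterol and fatty acid synthesis was followed through 31 genes in human esophageal epithelium treated with dimethyloxalylglycine (DMOG). The genes were taken by name from a fixed list of targets and regulators of the sterol regulatory element-binding proteins (SREBPs), and all 31 were found among the 25369 genes of the deposited table. The list falls into 5 blocks: 7 enzymes of the mevalonate pathway, 3 enzymes that turn its product into lanosterol, 8 enzymes from lanosterol to cholesterol, 6 SREBP regulators and sterol carriers, and 7 enzymes of fatty acid synthesis and desaturation. SREBPs are membrane-bound transcription factors of the endoplasmic reticulum (ER). When sterols are scarce, the escort protein SCAP carries them to the Golgi, where proteases release the active factor. When sterols are plentiful, INSIG proteins hold SCAP in the ER, and the genes of sterol and fatty acid synthesis are transcribed less. In stratified epithelium these pathways supply cholesterol and fatty acids to dividing cells and to the lipids of the upper layers.

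RNA was sequenced from EPC2-hTERT, human keratinocytes of the esophagus made immortal by telomerase and labelled wild type, so that every culture derives from a single line. Cells were grown on membranes with 0.4 µm pores for 2 days to reach confluence, then for 5 days in medium with 1.8 mM CaCl2, and for 4 days at the air-liquid interface, where they stratify. The DMOG group (4 libraries) had 1 mM DMOG for 18 h before harvest, and the vehicle group (4 libraries) had DMSO, the solvent, for the same time. DMOG mimics 2-oxoglutarate and blocks the oxygen-dependent prolyl hydroxylases that mark hypoxia-inducible factor (HIF) for degradation, but it also acts on other 2-oxoglutarate enzymes. Whether the 4 libraries of a group came from separate cultures is not stated in the labels, and p-values therefore reflect the spread among these libraries alone, which may be technical.

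The read totals to which the RPKM were scaled, recovered from the values, were 31245695 to 39931833 per library. The 31 genes had 93 to 68146 reads each per library. Levels are RPKM (reads per kilobase of gene length, scaled to the library's read total) divided by a median-ratio factor per library, called scaled RPKM here. The library labelled DMOG replicate 2 stood apart from the other three DMOG libraries. CA9, a carbonic anhydrase induced by HIF, was at 27.5, 2.42, 10.7 and 67.7 scaled RPKM in DMOG replicates 1 to 4, against 0.822, 1.28, 0.120 and 0.515 in vehicle replicates 1 to 4. ENO2, an enolase induced by HIF, was at 76.5, 1.83, 25.4 and 185 scaled RPKM in the DMOG replicates, against 1.69, 0.788, 1.69 and 1.28 in the vehicle replicates. DMOG replicate 2 was above every vehicle library for both genes, but far below the other three DMOG libraries. Of the 7 HIF targets looked at, it lay above the vehicle range for 3, CA9, ENO2 and NDUFA4L2, and within it for the other four. NDUFA4L2, a HIF-induced mitochondrial protein named after its values were seen, was at 199, 45.4, 94.2 and 366 scaled RPKM in the DMOG replicates, against 19.3, 19.7, 6.75 and 21.0 in the vehicle replicates. The authors' own comparison leaves out replicate 2 of both groups, and the sources used here give no reason. Each result is accordingly given with all 8 libraries and with the 6 libraries that the authors compared, replicates 1, 3 and 4 of each group. Since replicate 2 of either group may have been left out for its expression values, p-values over 6 libraries do not allow for that choice.

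All 8 squamous keratinocyte markers looked at were present at 1 scaled RPKM or more. Their summed level was 23900 to 33500 in DMOG libraries and 17700 to 30100 in vehicle libraries. Over 6 libraries 4 of the 8 were called higher and 0 lower, against 13.9% and 16.0% of all genes tested. Of 6 fibroblast markers, 5 stayed under 1 scaled RPKM in every library and 2 of these were at 0, while COL1A1 brought the sum to 18.0 to 37.7 in DMOG libraries and 8.68 to 12.6 in vehicle libraries and was called higher over 6 libraries (log2 fold change 1.32, limma adjusted p = 0.00537). Of 5 leukocyte markers, CD68 alone reached 1 scaled RPKM, with the list's sum at 57.6 to 101 in DMOG libraries and 37.6 to 69.0 in vehicle libraries, and CD68 was called higher over 6 libraries (0.80, adjusted p = 0.0384). PTPRC, the pan-leukocyte marker, stayed under 1 scaled RPKM in every library. Of 4 endothelial markers VWF alone reached 1 scaled RPKM, with the list's sum at 1.02 to 1.80 in DMOG libraries and 1.34 to 1.75 in vehicle libraries, and was not called. Of 5 glandular or columnar markers, KRT8 and KRT18 reached 1 scaled RPKM, with the list's sum at 93.2 to 119 in DMOG libraries and 92.3 to 136 in vehicle libraries, and neither was called. What part the makeup of the cultures had in the differences below was not tested. In such bulk samples, fewer cells of a layer and less RNA per cell cannot be told apart.

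With DMOG, the 31 genes did not move as a block. Over the 6 libraries, SQLE, NSDHL, INSIG1, MVD and MVK rose and ELOVL6, ACACA, SCAP and PMVK fell (limma adjusted p under 0.05, counted as called below). Of the 5 genes that rose, 4 are enzymes of sterol synthesis and INSIG1 is a regulator of it. Of the 4 that fell, PMVK is an enzyme of the same synthesis, SCAP is the SREBP escort, and ELOVL6 and ACACA are enzymes of fatty acid synthesis. Sterol synthesis and its regulators make up 24 of the 31 genes, and the split between the roles was not tested. The 5 called higher were 16.1% of the genes, against 13.9% of all 11122 genes tested, and the 4 called lower were 12.9%, against 16.0% of all genes. These shares are near those of all genes, so the counts set the list apart from the transcriptome in neither direction. The median log2 fold change, DMOG minus vehicle, was 0.03 over the 31 genes and 0.00 over all genes tested.

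Over all 8 libraries, limma called 0 of the 31 genes higher and 0 lower, as it did for 0.0% of all genes tested, and limma-voom on recovered reads called 0 as well. At an unadjusted p under 0.05 stood 12 of the 31 genes (38.7%), 6 higher and 6 lower, against 30.3% of all genes. DMOG replicate 2 lay within the range of the 4 vehicle libraries for 22 of the 31 genes. The share of all genes for which it did so was not counted, so this number does not set the 31 genes apart. Without that library, 7 of the 31 genes were called higher (22.6%, against 15.6% of all genes) and 6 lower (19.4%, against 17.6%) in the remaining 7 libraries. The 4 DMOG libraries all lay above the 4 vehicle libraries for MVK and MSMO1, which is 6.45% of the genes against 5.04% of all genes, and all below them for 0 genes, against 7.33% of all genes. DMOG replicates 1, 3 and 4 lay above all 4 vehicle libraries for 8 genes (25.8%, against 20.3% of all genes) and below them for 6 (19.4%, against 22.1%). The 8 genes were MVK, IDI1, SQLE, MSMO1, NSDHL, EBP, SC5D and INSIG1, and the 6 were PMVK, DHCR7, SCAP, ACACA, ELOVL6 and FADS1.

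With the RPKM as deposited, the split of the calls over 6 libraries was 2 higher (6.45%, against 6.13% of all genes) and 9 lower (29.0%, against 34.5%), since the median of all genes then stood at -0.26. SQLE and NSDHL remained called higher, and PMVK, SCAP, ACACA and ELOVL6 remained called lower, joined by TM7SF2, DHCR7, SREBF1, ACSS2 and FADS1. Changes below are relative to the median gene, which the scaling sets near 0. A fit with the replicate number as a block called 8 higher (25.8%, against 19.7% of all genes) and 5 lower (16.1%, against 20.7%). It added EBP, SC5D, INSIG2 and SREBF1 to the 9 genes named above, whose calls come from the fit with the group as the only term.

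**Figure D1:**
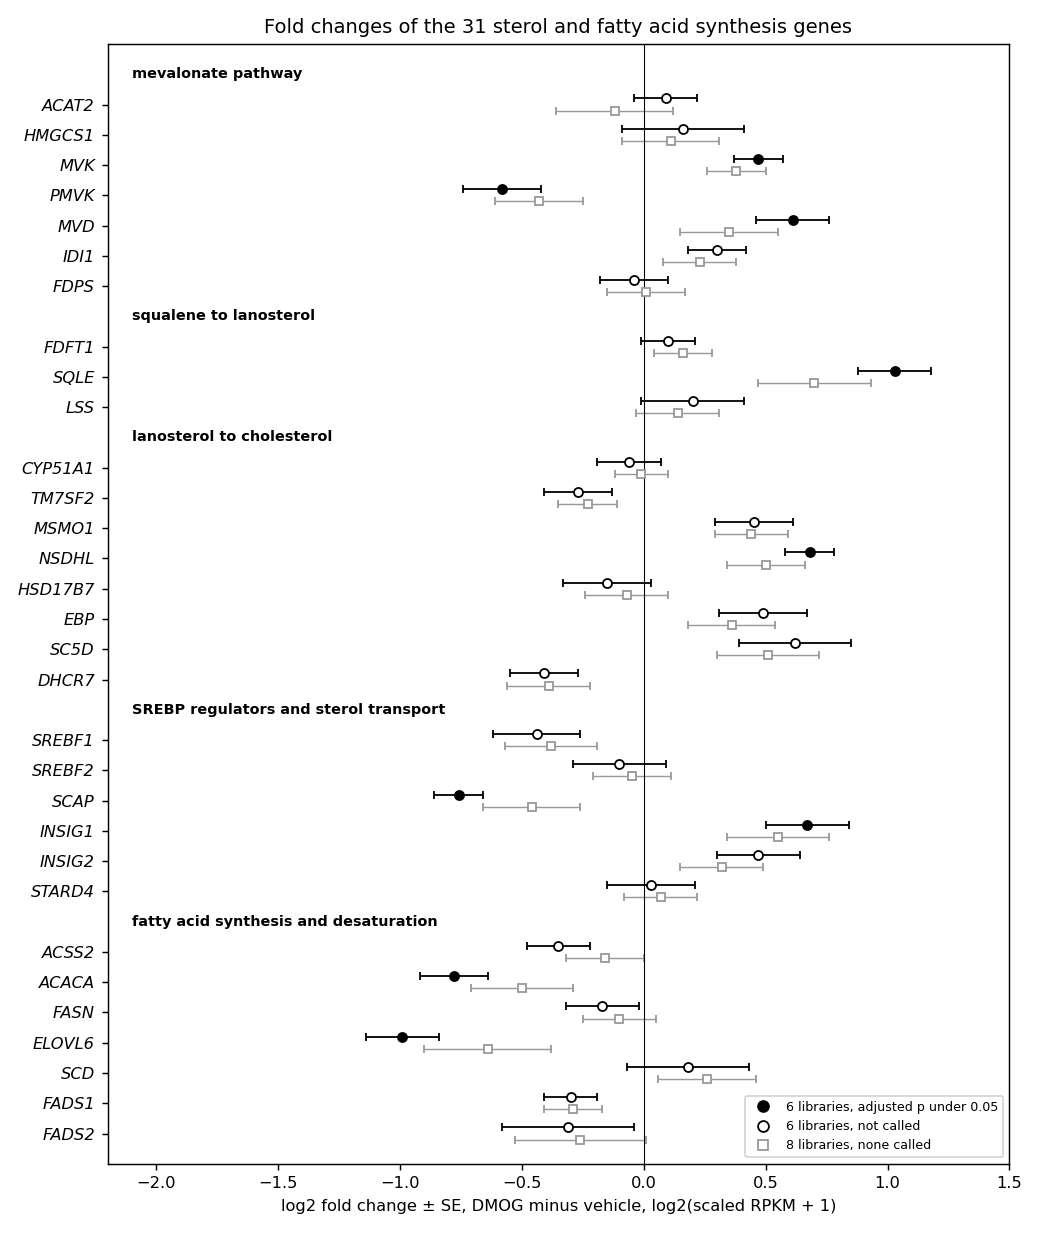
Log2 fold change (x axis, DMOG minus vehicle, on the log2(scaled RPKM + 1) scale) of each of the 31 genes (y axis), grouped by role. Circles are the 6-library comparison, filled where the adjusted p is under 0.05, and squares the 8-library comparison. Bars are SE. SQLE at 1.03 is farthest to the right, ELOVL6 at -0.99 farthest to the left, and 27 of the 31 values over 8 libraries lie nearer 0.

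SREBPs are known to act together with the CCAAT-binding factor NF-Y at the promoters of these genes, and 6 promoters of called genes are shown so that the CCAAT letters can be read beside the calls. RefSeq promoters on GRCh38.p14, from 250 bases before to 50 bases after a listed start, were at hand for 27 of the 31 genes, and SQLE, FDFT1, ACAT2 and FASN had none. Searched on both strands were TCACNCCAC, a form of the sterol regulatory element, and CCAAT, the core bound by NF-Y. ACGTG, a form of the core of the HIF binding site, was searched in the same way, and other forms were not. None of these motifs contains another, but CCAAT matches on opposite strands can overlap, and CACGTG is matched by ACGTG on both strands. In the sequences below, read 5′ to 3′ along the gene, capitals mark CCAAT or its reverse complement ATTGG. The first 4 genes rose over 6 libraries and the last 2 fell. ACACA and PMVK also fell and are not shown here, and of these ACACA held CCAAT and PMVK did not.
MVK: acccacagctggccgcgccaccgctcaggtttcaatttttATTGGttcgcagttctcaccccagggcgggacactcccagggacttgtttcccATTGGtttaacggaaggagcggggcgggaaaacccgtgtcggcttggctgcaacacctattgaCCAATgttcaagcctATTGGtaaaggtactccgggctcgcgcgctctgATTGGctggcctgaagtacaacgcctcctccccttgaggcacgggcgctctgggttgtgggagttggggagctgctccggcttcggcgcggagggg
NSDHL: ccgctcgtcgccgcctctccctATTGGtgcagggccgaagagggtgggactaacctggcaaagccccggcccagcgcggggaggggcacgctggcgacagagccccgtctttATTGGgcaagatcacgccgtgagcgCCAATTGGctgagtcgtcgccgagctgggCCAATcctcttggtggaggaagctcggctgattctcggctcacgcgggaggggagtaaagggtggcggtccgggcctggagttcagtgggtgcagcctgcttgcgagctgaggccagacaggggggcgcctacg
MVD: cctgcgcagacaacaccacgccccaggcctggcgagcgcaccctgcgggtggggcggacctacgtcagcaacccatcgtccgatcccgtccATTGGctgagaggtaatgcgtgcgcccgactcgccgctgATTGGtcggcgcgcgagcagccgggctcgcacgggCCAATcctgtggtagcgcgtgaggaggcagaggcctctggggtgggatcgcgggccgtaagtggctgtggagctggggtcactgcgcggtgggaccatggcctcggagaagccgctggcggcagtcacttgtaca
INSIG1: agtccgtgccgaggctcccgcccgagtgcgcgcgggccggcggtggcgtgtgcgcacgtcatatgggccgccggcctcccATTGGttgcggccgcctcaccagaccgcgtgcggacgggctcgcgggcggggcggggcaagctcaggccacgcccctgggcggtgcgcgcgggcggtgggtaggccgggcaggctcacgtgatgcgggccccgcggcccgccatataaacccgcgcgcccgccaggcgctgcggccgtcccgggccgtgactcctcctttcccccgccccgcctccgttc
ELOVL6: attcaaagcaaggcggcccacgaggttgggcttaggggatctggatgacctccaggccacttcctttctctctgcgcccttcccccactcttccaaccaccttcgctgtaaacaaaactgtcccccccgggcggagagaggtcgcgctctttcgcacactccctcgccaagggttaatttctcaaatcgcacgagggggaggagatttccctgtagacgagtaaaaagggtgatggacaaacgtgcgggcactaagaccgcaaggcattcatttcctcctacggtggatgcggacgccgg
SCAP: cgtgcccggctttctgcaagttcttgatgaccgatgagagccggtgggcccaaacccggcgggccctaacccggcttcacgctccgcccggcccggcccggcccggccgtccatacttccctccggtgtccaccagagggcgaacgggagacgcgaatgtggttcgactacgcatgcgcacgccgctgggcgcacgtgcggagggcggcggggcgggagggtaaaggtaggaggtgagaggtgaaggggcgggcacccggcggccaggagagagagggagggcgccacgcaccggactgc

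The windows lie at chr12:109573544-109573843 (plus strand) for MVK, chrX:152830813-152831112 (plus strand) for NSDHL, chr16:88663042-88663341 (minus strand) for MVD, chr7:155297628-155297927 (plus strand) for INSIG1, chr4:110198566-110198865 (minus strand) for ELOVL6 and chr3:47475892-47476191 (minus strand) for SCAP. MVK and NSDHL held 5 CCAAT matches each, MVD held 3 and INSIG1 held 1, while ELOVL6 and SCAP held 0. All 4 genes that rose and had a promoter listed held CCAAT, as did 1 of the 4 that fell (ACACA, in 2 of its 3 listed promoters) and 15 of the 19 that were not called. In all, 20 of the 27 genes held it in a listed promoter, against 39.7% of 27305 genes, and 34.6% of 35116 promoters did. The count of matches is a description of letters, and no test was made of it against the fold changes.

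**Figure D2:**
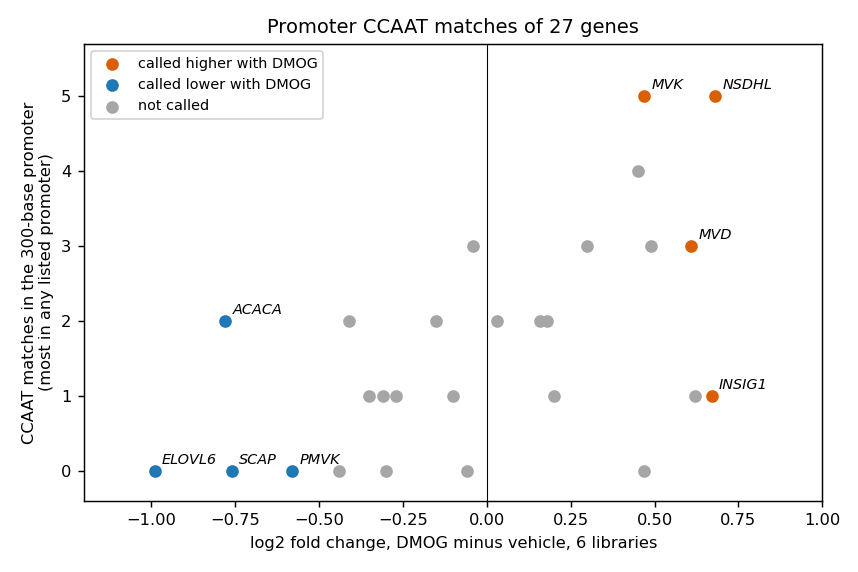
Log2 fold change over 6 libraries (x axis, DMOG minus vehicle) against the number of CCAAT matches on both strands in a 300-base promoter (y axis, the most in any listed promoter of the gene) for 27 genes. Points are genes, orange where called higher, blue where called lower and grey where not called. MVK and NSDHL have 5 matches, and ELOVL6, SCAP and PMVK have 0, while ACACA, also called lower, has 2.

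ACGTG was held by 10 of the 27 genes, against 24.9% of genes and 21.4% of promoters. It stood in 1 of the 4 genes that rose (INSIG1), in 3 of the 4 that fell (ACACA, ELOVL6 and SCAP) and in 6 of the 19 not called. TCACNCCAC stood in 1.13% of all promoters and in 1 of the 37 listed promoters of the 27 genes. That 1 belongs to SREBF2, the gene of the SREBP that mainly drives sterol synthesis. That promoter (chr22:41832855-41833154 (plus strand)) is shown with the match in capitals. A window with no match says only that these letters are not in these bases.
SREBF2: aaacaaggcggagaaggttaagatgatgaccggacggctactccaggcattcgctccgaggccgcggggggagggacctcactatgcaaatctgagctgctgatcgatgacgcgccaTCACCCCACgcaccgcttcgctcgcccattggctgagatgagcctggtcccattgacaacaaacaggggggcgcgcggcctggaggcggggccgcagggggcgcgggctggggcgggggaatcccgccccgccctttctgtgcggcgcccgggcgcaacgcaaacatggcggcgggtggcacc

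The mevalonate pathway builds the isoprenoid precursors of sterols from acetyl-CoA. Of its 7 genes, 2 rose and 1 fell over 6 libraries, against 13.9% and 16.0% of all genes tested. The median log2 fold change of the 7 genes was 0.16. MVK (chr12:110011500-110035071, hg19), mevalonate kinase, was at 24.9, 19.9, 24.6 and 28.5 scaled RPKM in DMOG replicates 1 to 4, against 17.6, 18.7, 18.4 and 19.3 in vehicle replicates 1 to 4. All DMOG libraries, replicate 2 included, lay above every vehicle library. Its log2 fold change was 0.47 ± 0.10 SE over 6 libraries (limma adjusted p = 0.0169) and 0.38 ± 0.12 over 8 (adjusted p = 0.118). The call was lost with RPKM as deposited (adjusted p = 0.182) and without DMOG replicate 1 (0.0564) or vehicle replicates 1 (0.0810), 3 (0.0528) or 4 (0.0582).

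The next kinase of the pathway went the other way. PMVK (chr1:154897208-154909484, hg19), phosphomevalonate kinase, was at 12.5, 22.9, 14.6 and 17.5 scaled RPKM in the DMOG replicates, against 21.4, 22.7, 19.8 and 27.2 in the vehicle replicates. The libraries of DMOG replicates 1, 3 and 4 lay below all vehicle libraries and DMOG replicate 2 lay among them. PMVK fell by 0.58 on the log2 scale over 6 libraries (SE 0.16, limma adjusted p = 0.0370), and over 8 the log2 fold change was -0.43 ± 0.18 (adjusted p = 0.149). Its call was lost without a filter (adjusted p = 0.0728) and without DMOG replicate 1 (0.118) or vehicle replicates 1 (0.0957), 3 (0.0545) or 4 (0.117). PMVK shares 12277 bases with the listed span of SRGAP2D, at 1.82 RPKM at most, on the opposite strand.

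MVD (chr16:88718348-88729495, hg19), the decarboxylase that makes isopentenyl diphosphate, was at 17.9, 15.2, 22.2 and 24.4 scaled RPKM in the DMOG replicates, against 14.7, 20.9, 11.6 and 14.7 in the vehicle replicates. Vehicle replicate 2, at 20.9, overlapped the DMOG libraries. The log2 fold change was 0.61 ± 0.15 over 6 libraries (limma adjusted p = 0.0259) and 0.35 ± 0.20 over 8 (adjusted p = 0.241). MVD lost its call when vehicle replicate 2 was added (adjusted p = 0.0925), with RPKM as deposited (0.136), without a filter (0.0528) and without vehicle replicates 1 (0.0699), 3 (0.0757) or 4 (0.0666).

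The 4 other genes of the pathway were not called over 6 libraries, with log2 fold changes between -0.04 and 0.30. IDI1, the isomerase of isopentenyl diphosphate, was at 58.0, 44.7, 70.5 and 63.0 scaled RPKM in the DMOG replicates, against 46.8, 44.0, 51.1 and 57.4 in the vehicle replicates. For IDI1 too, DMOG replicates 1, 3 and 4 were above all vehicle libraries, by little in replicate 1, and the fit gave a log2 fold change of 0.30 ± 0.12 (limma adjusted p = 0.107). HMGCS1, which condenses acetoacetyl-CoA to HMG-CoA, ran from 13.2 to 28.1 scaled RPKM in DMOG libraries and from 15.2 to 18.1 in vehicle libraries, so that the DMOG libraries lay on both sides. FDPS, which makes farnesyl diphosphate and has pseudogene copies that could share its reads, ran from 69.1 to 107 in DMOG libraries and from 74.6 to 93.6 in vehicle libraries, with DMOG replicate 2 the highest. ACAT2, the cytosolic thiolase that starts the pathway, ran from 17.4 to 22.9 scaled RPKM in DMOG libraries and from 16.9 to 38.3 in vehicle libraries, the top value being vehicle replicate 2. ACAT2 shares 558 bases with TCP1 on the opposite strand, and without the strand setting of the counting its reads and those of TCP1 cannot be told apart there.

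**Figure D3:**
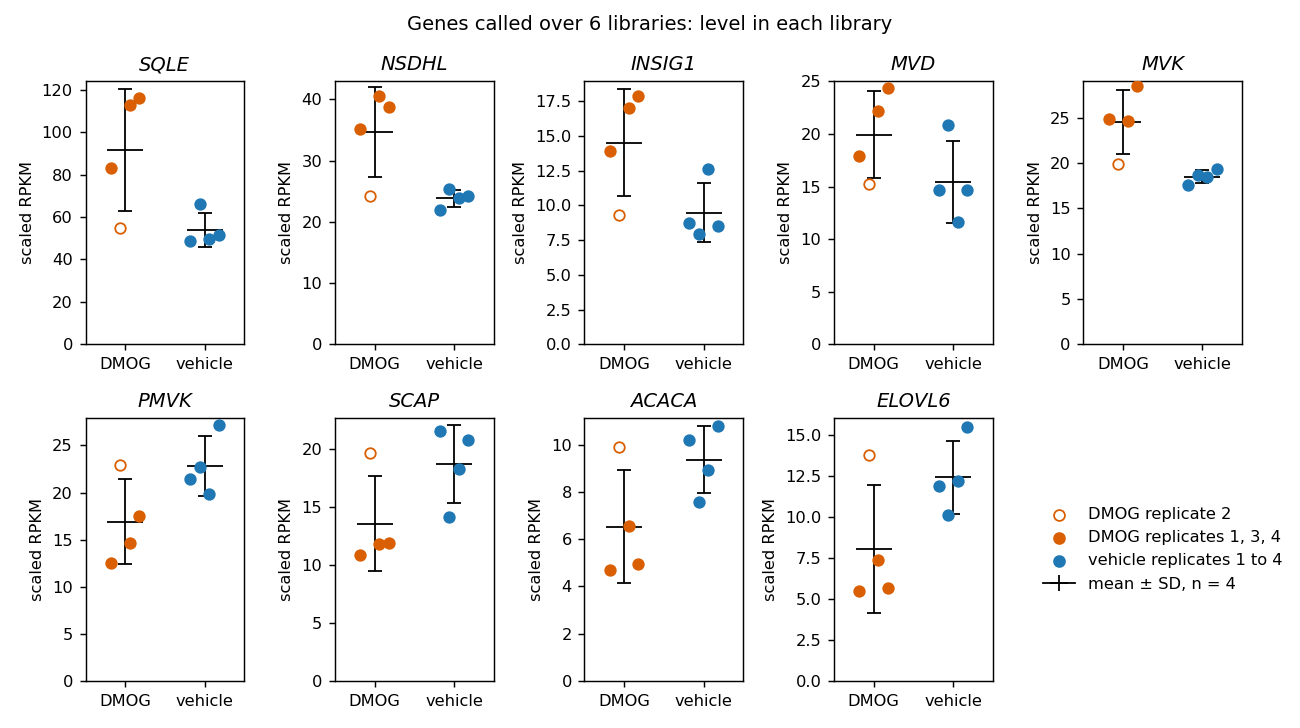
Scaled RPKM (y axis, from 0) in each library for the 9 genes called over 6 libraries, with DMOG on the left and vehicle on the right of each panel. Points are libraries, the open circle is DMOG replicate 2, and the cross bar and whiskers are the mean ± SD of 4 libraries. The open circle lies at or near the vehicle points, for instance at 19.7 for SCAP beside vehicle values of 14.1 to 21.6.

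From farnesyl diphosphate, 3 enzymes lead to lanosterol, the first sterol. SQLE, squalene epoxidase (chr8:126010720-126034525, hg19), which adds molecular oxygen to squalene and is a control point of the pathway, had the largest rise of the 31 genes over 6 libraries. Its level was 83.1, 54.9, 113 and 116 scaled RPKM in the DMOG replicates, against 48.9, 66.0, 49.8 and 51.7 in the vehicle replicates. All but DMOG replicate 2 of the DMOG libraries were above all vehicle libraries, whereas DMOG replicate 2 lay among them and vehicle replicate 2 was the highest of its group. SQLE averaged 104 ± 18.3 scaled RPKM in DMOG libraries and 50.1 ± 1.43 in vehicle libraries of the 6-library comparison (SD, n = 3 each). With vehicle replicate 2 included, SQLE averaged 54.1 ± 8.04 in vehicle libraries (SD, n = 4). Its log2 fold change was 1.03 ± 0.15 over 6 libraries (limma adjusted p = 0.00665) and 0.70 ± 0.23 over 8 (adjusted p = 0.118). The call over 6 libraries was kept under all 14 alternatives to that fit, with log2 fold changes from 0.72 to 1.18. None of these alternatives adds DMOG replicate 2 to the fit.

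The neighbours of SQLE in the pathway were not called. FDFT1, squalene synthase, ran from 43.7 to 49.9 scaled RPKM in DMOG libraries and from 34.9 to 47.1 in vehicle libraries (log2 fold change 0.10 ± 0.11 over 6 libraries, limma adjusted p = 0.520). LSS, lanosterol synthase, which closes the rings of the sterol, ran from 12 to 21.0 in DMOG libraries and from 11.0 to 15.2 in vehicle libraries (0.20 ± 0.21, adjusted p = 0.501). Both genes overlapped between groups.

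The 8 genes from lanosterol to cholesterol held 1 that rose, NSDHL, and 0 that fell over 6 libraries. Of all genes tested, 13.9% rose and 16.0% fell. The median log2 fold change of the 8 genes was 0.20. NSDHL (chrX:151999511-152037907, hg19), the dehydrogenase that removes the C4 carboxyl groups, was at 35.2, 24.2, 40.5 and 38.8 scaled RPKM in DMOG replicates 1 to 4, against 21.9, 25.3, 23.9 and 24.3 in vehicle replicates 1 to 4. Of the DMOG libraries, replicates 1, 3 and 4 stood well above all vehicle libraries and DMOG replicate 2 stood inside their range. Its log2 fold change was 0.68 ± 0.10 over 6 libraries (limma adjusted p = 0.00718) and 0.50 ± 0.16 over 8 (adjusted p = 0.118). NSDHL kept its call under all 14 alternatives to the 6-library fit, as SQLE did.

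MSMO1, the oxygenase that acts on the C4 methyl groups just before NSDHL, was at 130, 111, 169 and 112 scaled RPKM in the DMOG replicates, against 103, 83.5, 92.6 and 101 in the vehicle replicates. The groups did not overlap, but the spread of the DMOG libraries was wide. Its log2 fold change was 0.45 ± 0.16 over 6 libraries (limma adjusted p = 0.0724) and 0.44 ± 0.15 over 8 (adjusted p = 0.120). MSMO1 passed without DMOG replicate 4 (adjusted p = 0.0309) and when vehicle replicate 2 was added (0.0359).

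EBP, the isomerase of the sterol B ring, was at 56.1, 51.4, 72.1 and 92.2 scaled RPKM in the DMOG replicates, against 48.3, 51.8, 54.2 and 50.7 in the vehicle replicates. SC5D, the C5 desaturase, was at 19.4, 15.8, 18.2 and 33.4 in the DMOG replicates, against 14, 13.8, 13 and 16.7 in the vehicle replicates. In both genes DMOG replicates 1, 3 and 4 lay above every vehicle library, and DMOG replicate 4 was the highest. Neither passed over 6 libraries, with log2 fold changes of 0.49 ± 0.18 for EBP (limma adjusted p = 0.0782) and 0.62 ± 0.23 for SC5D (adjusted p = 0.0796). With the replicate number as a block both were called (adjusted p = 0.0432 for EBP and 0.0210 for SC5D), as they were with vehicle replicate 2 added (0.0481 and 0.0424). EBP was also called without DMOG replicate 1 (0.0496) and SC5D without DMOG replicate 3 (0.0394).

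DHCR7, which reduces 7-dehydrocholesterol to cholesterol, was on the low side with DMOG. It was at 22.6, 37.0, 28.8 and 29.3 scaled RPKM in the DMOG replicates, against 39.0, 46.6, 31.7 and 37.1 in the vehicle replicates. Replicates 1, 3 and 4 of the DMOG group lay below all vehicle libraries, and DMOG replicate 2 among them. The log2 fold change of -0.41 ± 0.14 over 6 libraries did not pass (limma adjusted p = 0.0627), but did without DMOG replicate 3 (0.0495), with vehicle replicate 2 added (0.0357) and with RPKM as deposited (0.00991).

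For the other 3 genes of this stretch the groups overlapped. CYP51A1, which demethylates lanosterol with oxygen, ran from 40.9 to 50.7 scaled RPKM in DMOG libraries and from 41.6 to 49.5 in vehicle libraries, with a log2 fold change of -0.06 ± 0.13 over 6 libraries. TM7SF2, a reductase of the C14 double bond, ran from 37.9 to 46.8 in DMOG libraries and from 44.9 to 58.9 in vehicle libraries, and was called lower only with RPKM as deposited (limma adjusted p = 0.0247). HSD17B7, the ketoreductase that completes C4 demethylation, had the lowest level of the 31 genes, from 2.31 to 4.26 in DMOG libraries and from 2.61 to 4.11 in vehicle libraries. The listed span of SRGAP2D, at 1.82 RPKM at most, shares 22113 bases with HSD17B7 and 11919 with FDPS on the same strand. Whether reads were shared there was not tested.

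Among the SREBP regulators and sterol carriers, 1 gene rose and 1 fell of 6, against 13.9% and 16.0% of all genes tested. SCAP (chr3:47455184-47517445, hg19), the escort that carries SREBPs from the ER, was at 10.9, 19.7, 11.8 and 11.9 scaled RPKM in DMOG replicates 1 to 4, against 21.6, 14.1, 18.3 and 20.8 in vehicle replicates 1 to 4. The levels of DMOG replicates 1, 3 and 4 lay close together and below every vehicle library, while DMOG replicate 2 lay among the vehicle values. SCAP averaged 11.5 ± 0.534 scaled RPKM in DMOG libraries and 20.3 ± 1.73 in vehicle libraries of the 6-library comparison (SD, n = 3 each). With vehicle replicate 2 included, SCAP averaged 18.7 ± 3.39 in vehicle libraries (SD, n = 4). It fell by 0.76 on the log2 scale over 6 libraries (SE 0.10, limma adjusted p = 0.00597), under all 14 alternatives as well, and over 8 libraries the log2 fold change was -0.46 ± 0.20 (adjusted p = 0.160).

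INSIG1 (chr7:155089486-155101945, hg19), the sterol-regulated anchor that keeps SCAP in the ER and is itself an SREBP target, was at 13.9, 9.31, 17.0 and 17.9 scaled RPKM in the DMOG replicates, against 8.75, 7.97, 12.6 and 8.53 in the vehicle replicates. Again DMOG replicates 1, 3 and 4 were above the vehicle libraries, of which replicate 3 was the highest. INSIG1 had a log2 fold change of 0.67 ± 0.17 over 6 libraries (limma adjusted p = 0.0288) and of 0.55 ± 0.21 over 8 (adjusted p = 0.134). The call was lost with RPKM as deposited (adjusted p = 0.0878), without a filter (0.0598), and without DMOG replicates 1 (0.0555) or 4 (0.0593) or vehicle replicates 1 (0.104) or 4 (0.101).

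INSIG2, the other anchor, which in mouse liver is known as a HIF target, was at 10.3, 7.19, 7.99 and 13.2 scaled RPKM in the DMOG replicates, against 6.88, 8.14, 6.82 and 7.67 in the vehicle replicates. DMOG replicates 1 and 4 were above the vehicle libraries, and DMOG replicates 2 and 3 within their range. The log2 fold change of 0.47 ± 0.17 over 6 libraries did not pass (limma adjusted p = 0.0741), but did with the replicate block (0.0357) and without DMOG replicate 3 (0.0122). Set against each other within a library, the log2 ratio of INSIG2 to INSIG1 averaged -0.54 ± 0.31 in DMOG libraries and -0.31 ± 0.36 in vehicle libraries (SD, n = 4 each). The difference of -0.23 was within the spread of unpaired libraries (two-sided exact permutation test, p = 0.371, adjusted over 2 ratios 0.371). Between libraries of the same number, the differences for replicates 1 to 4 were -0.09, -0.36, -0.19 and -0.28, all negative. A two-sided exact paired permutation test gave p = 0.125 over 4 pairs and p = 0.25 over the 3 pairs of the 6 libraries. These are the smallest values such numbers of pairs allow, before and after adjustment over 2 ratios. Over 8 libraries, those of replicates 1 and 2 did not correlate best with their own number, so the 4 pairs are not established.

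The SREBP genes themselves were not called. SREBF1, whose SREBP mainly drives fatty acid synthesis, was at 33.0, 50.9, 45.7 and 28.5 scaled RPKM in the DMOG replicates, against 48.0, 58.2, 53.5 and 42.8 in the vehicle replicates. DMOG replicates 1 and 4 were below all vehicle libraries and the other 2 were not. The log2 fold change was -0.44 ± 0.18 over 6 libraries (limma adjusted p = 0.108), and the gene was called lower with the replicate block (0.0276), without DMOG replicate 3 (0.0127) and with RPKM as deposited (0.0241). SREBF2 was at 51.0, 56.4, 36.6 and 53.8 scaled RPKM in the DMOG replicates, against 55.5, 51.8, 40.9 and 55.2 in the vehicle replicates, so the groups overlapped and replicate 3 was the lowest in both. Its log2 fold change was -0.10 ± 0.19 over 6 libraries (adjusted p = 0.692). The log2 ratio of SREBF1 to SREBF2 differed by -0.33 between DMOG and vehicle libraries (two-sided exact permutation test over 8 libraries, p = 0.314, adjusted p = 0.371). Within the numbered pairs this ratio differed by -0.41, -0.31, -0.07 and -0.53, again all negative, with the same smallest paired p-values. STARD4, a soluble sterol carrier, ran from 9.42 to 14.7 in DMOG libraries and from 9.63 to 12 in vehicle libraries.

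Fatty acid synthesis and desaturation held 0 genes that rose and 2 that fell of 7 over 6 libraries. Of all genes tested, 13.9% rose and 16.0% fell. The median log2 fold change of this block, -0.31, was the lowest of the 5 blocks, which were not tested against each other. ELOVL6 (chr4:110970229-111119820, hg19), which elongates palmitate to stearate, had the largest fall of the 31 genes. It was at 5.47, 13.8, 7.36 and 5.68 scaled RPKM in DMOG replicates 1 to 4, against 11.9, 10.1, 12.2 and 15.5 in vehicle replicates 1 to 4. DMOG replicates 1, 3 and 4 lay below every vehicle library, and DMOG replicate 2 lay among the upper ones. ELOVL6 fell by 0.99 on the log2 scale over 6 libraries (SE 0.15, limma adjusted p = 0.00782) and under all 14 alternatives, and over 8 libraries the log2 fold change was -0.64 ± 0.26 (adjusted p = 0.143).

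ACACA (chr17:35441927-35766902, hg19), the acetyl-CoA carboxylase that commits carbon to fatty acids, was at 4.70, 9.92, 6.57 and 4.95 scaled RPKM in the DMOG replicates, against 10.2, 7.57, 8.91 and 10.8 in the vehicle replicates. The pattern was that of ELOVL6, with DMOG replicates 1, 3 and 4 below all vehicle libraries and DMOG replicate 2 among them. ACACA fell by 0.78 on the log2 scale over 6 libraries (SE 0.14, limma adjusted p = 0.0110), and over 8 the log2 fold change was -0.50 ± 0.21 (adjusted p = 0.153). The call was lost without vehicle replicates 1 (adjusted p = 0.0540) or 4 (0.0519).

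FASN, the synthase that uses the malonyl-CoA from ACACA, was not called and overlapped between groups, at 26.1, 40.5, 37.3 and 30.8 scaled RPKM in the DMOG replicates, against 39.3, 36.9, 33.2 and 33.4 in the vehicle replicates. Its log2 fold change was -0.17 ± 0.15 over 6 libraries (limma adjusted p = 0.398). ACSS2, which makes acetyl-CoA from acetate, ran from 9.70 to 15.3 in DMOG libraries and from 11.2 to 15.8 in vehicle libraries (-0.35 ± 0.13, adjusted p = 0.0857, called lower only with RPKM as deposited, 0.0116). SCD, the stearoyl-CoA desaturase, had the highest level of the 31 genes, from 225 to 452 scaled RPKM in DMOG libraries and from 242 to 301 in vehicle libraries. DMOG replicate 4 was the highest for SCD and DMOG replicate 3 the lowest, and the log2 fold change of 0.18 ± 0.25 over 6 libraries did not pass (adjusted p = 0.602).

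The pair of front-end desaturases of polyunsaturated fatty acids lies side by side on chromosome 11, where the listed spans of FADS1 and FADS2 share 855 bases on opposite strands. FADS1 was at 3.96, 5.34, 4.15 and 4.50 scaled RPKM in the DMOG replicates, against 5.68, 6.66, 5.10 and 5.43 in the vehicle replicates. For this gene DMOG replicates 1, 3 and 4 were below all vehicle libraries. The log2 fold change of -0.30 ± 0.11 over 6 libraries did not pass (limma adjusted p = 0.0680), but did with limma-voom on recovered reads (0.0488), with vehicle replicate 2 added (0.0414) and with RPKM as deposited (0.00918). FADS2 ran from 6.68 to 16.4 in DMOG libraries and from 8.98 to 17.9 in vehicle libraries, and replicate 3 was the lowest in both groups.

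**Figure D4:**
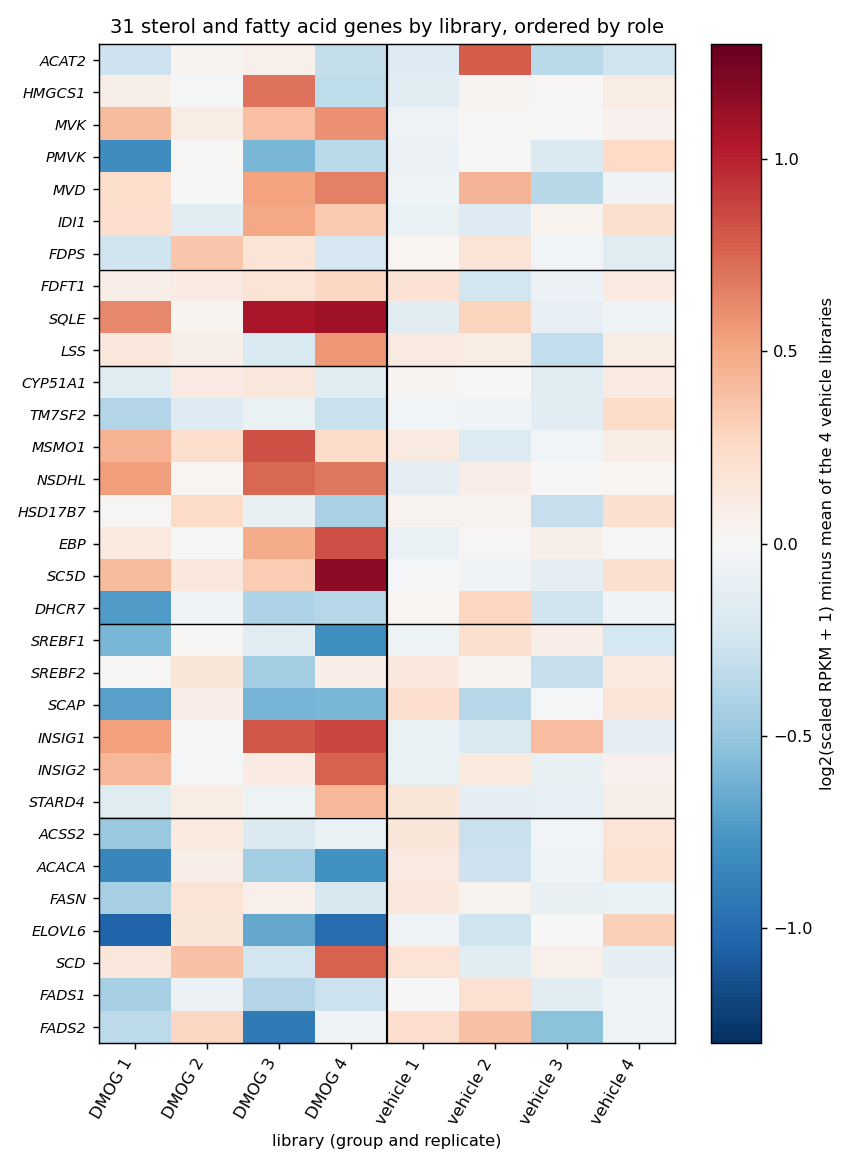
Each cell is the log2(scaled RPKM + 1) of a gene (y axis, 31 genes by role) in a library (x axis, DMOG replicates 1 to 4 on the left of the line and vehicle replicates 1 to 4 on the right) minus the mean of the 4 vehicle libraries. Red is above that mean and blue below it. The DMOG 2 column is pale for most genes, and for 22 of the 31 its level lies within the vehicle range. The share over all genes was not counted.

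Across the role blocks, 7 of the enzymes use molecular oxygen as a substrate: SQLE, CYP51A1, MSMO1, SC5D, SCD, FADS1 and FADS2. Of these, 1 rose and 0 fell over 6 libraries, against 13.9% and 16.0% of all genes tested. Their median log2 fold change was 0.18. Of the 18 other enzymes among the genes, 3 rose and 3 fell, with a median of 0.02. The difference between these groups of enzymes was not tested. In 3 of the 7, DMOG replicates 1, 3 and 4 lay above all vehicle libraries, and in 1 below them. Among all genes these shares were 20.3% and 22.1%. With only 7 genes, such counts do not set these enzymes apart from all genes.

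In vehicle libraries, levels per kilobase ran from 3.47 ± 0.628 scaled RPKM for HSD17B7 to 267 ± 28.7 for SCD (SD, n = 4). SCD stood above 98.2% of the genes tested. MSMO1 came next at 94.9 ± 8.79, then FDPS at 83.4 ± 7.94 and SQLE at 54.1 ± 8.04. The gaps from SCD to MSMO1 and from FDPS to SQLE were wider than these SDs, while the ranges of MSMO1 and FDPS overlapped. In DMOG replicates 1, 3 and 4, SQLE reached 104 ± 18.3 and FDPS was at 78.2 ± 14 (SD, n = 3). The regulators INSIG1 and INSIG2 were lower, at 9.46 ± 2.12 and 7.38 ± 0.642 in vehicle libraries, and SREBF1 and SREBF2 were near each other at 50.6 ± 6.69 and 50.8 ± 6.84.

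Other genes of these pathways gave calls in both directions over 6 libraries. No list was tested against the shares of all genes, given beside each. Of 8 further sterol and isoprenoid genes tested, 0 rose and 2 fell, against 13.9% and 16.0% of all genes. Their median log2 fold change was -0.20. DHDDS, a subunit of the enzyme that makes dolichol precursors, was at 5.79, 8.71, 8.43 and 4.68 scaled RPKM in the DMOG replicates, against 9.33, 11.7, 10.9 and 10.4 in the vehicle replicates, and fell by 0.65 on the log2 scale (limma adjusted p = 0.0419). All 4 DMOG libraries lay below all 4 vehicle libraries for DHDDS. PDSS1, of coenzyme Q side chain synthesis, was at 0.845, 1.33, 1.09 and 0.373 in the DMOG replicates, against 2.00, 2.06, 1.81 and 1.29 in the vehicle replicates, and fell by 0.62 (adjusted p = 0.0455). DMOG replicate 2 overlapped the vehicle libraries for PDSS1, and the other three DMOG libraries lay below them. PDSS1 had only 16 to 126 reads per library, and DMOG replicates 1 and 4 were under 1 scaled RPKM. Among other alternatives, its call was lost with a pseudocount of 0.25 (limma adjusted p = 0.0549) and with limma-voom on recovered reads (0.0541).

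Of 10 further genes of SREBP processing and of the degradation of its ER regulators, 1 rose and 4 fell. The shares of all genes were 13.9% and 16.0%, and the median of the list was -0.34. UBE2G2, a ubiquitin-conjugating enzyme of ER-associated degradation, was at 5.51, 13.6, 9.01 and 5.54 scaled RPKM in the DMOG replicates, against 16.9, 13.4, 15.7 and 16.6 in the vehicle replicates, and fell by 1.21 (limma adjusted p = 0.00718). ERLIN2, an ER scaffold for ubiquitin ligases, fell by 0.80 (adjusted p = 0.00581). These 2 calls held under all 14 alternatives. The Golgi proteases that release SREBPs were on the low side too. MBTPS1 was at 13.9, 20.5, 13.7 and 15.3 scaled RPKM in the DMOG replicates, against 24.1, 17.3, 20.2 and 23.7 in the vehicle replicates, and fell by 0.62 (adjusted p = 0.00998). MBTPS2, named after its values were seen, was at 2.91, 4.22, 3.48 and 3.51 in the DMOG replicates, against 5.09, 5.53, 4.83 and 5.35 in the vehicle replicates, and fell by 0.50 (adjusted p = 0.0189). FAF2, an adaptor of ER-associated degradation and likewise named afterwards, was called higher at 0.33 (adjusted p = 0.0389) and stood at 0.03 with RPKM as deposited (0.837).

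Of 19 further fatty acid genes tested, 4 rose and 3 fell, against 13.9% and 16.0% of all genes, with a median of -0.12. SCD5, a stearoyl-CoA desaturase like SCD, was at 4.88, 2.54, 2.67 and 3.93 scaled RPKM in the DMOG replicates, against 2.71, 3.40, 1.11 and 1.32 in the vehicle replicates, with a log2 fold change of 0.85 (limma adjusted p = 0.0476) and overlapping groups. ELOVL4, which makes very long chain fatty acids, was at 36.5, 26.3, 28.5 and 29.0 in the DMOG replicates, against 17.5, 22.0, 17.8 and 22.4 in the vehicle replicates (0.68, adjusted p = 0.0165), and all 4 DMOG libraries lay above all vehicle libraries. ACSL3, which activates fatty acids, fell by 0.63 (adjusted p = 0.0136). The other calls of this list, named after their values were seen, were ELOVL1 (0.56) and TECR (0.45), both of chain elongation, as higher, and GPAM (-0.51), which starts triglyceride synthesis, and HSD17B12 (-0.44), also of chain elongation, as lower.

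Of 14 genes of sterol uptake, export and the oxysterol receptors, 3 rose and 0 fell, against 13.9% and 16.0% of all genes. The median of this list was 0.16. ABCG1, a sterol exporter, was at 55.4, 23.1, 38.4 and 91.9 scaled RPKM in the DMOG replicates, against 15.9, 20.1, 24.8 and 15.9 in the vehicle replicates, with a log2 fold change of 1.60 (limma adjusted p = 0.0140). DMOG replicates 1, 3 and 4 were above every vehicle library, and DMOG replicate 4 was far above the others. OSBPL2, an oxysterol-binding protein, rose by 0.65 (adjusted p = 0.0134) and NPC2, which hands cholesterol out of lysosomes, by 0.54 (0.0325). Over all 8 libraries, 0 genes of these 4 lists were called by limma, as for all genes.

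Of the 17 calls in these 4 lists over 6 libraries, those of UBE2G2 and ERLIN2 held under all 14 alternatives and the other 15 were lost under at least 1. Without vehicle replicate 1, 14 of the 17 calls were lost (limma adjusted p from 0.0540 to 0.148), ABCG1, MBTPS1 and MBTPS2 among them. Without vehicle replicate 4, 14 were lost as well (0.0502 to 0.143), including the same 3 genes. Without DMOG replicate 1, 13 were lost (0.0539 to 0.145), without vehicle replicate 3, 8 (0.0554 to 0.134), without DMOG replicate 4, 6 (0.0553 to 0.0909), and without DMOG replicate 3, that of ELOVL1 (0.0672). With RPKM as deposited 6 of the calls as higher were lost, ELOVL4 (adjusted p = 0.0947) and NPC2 (0.173) among them.

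**Figure D5:**
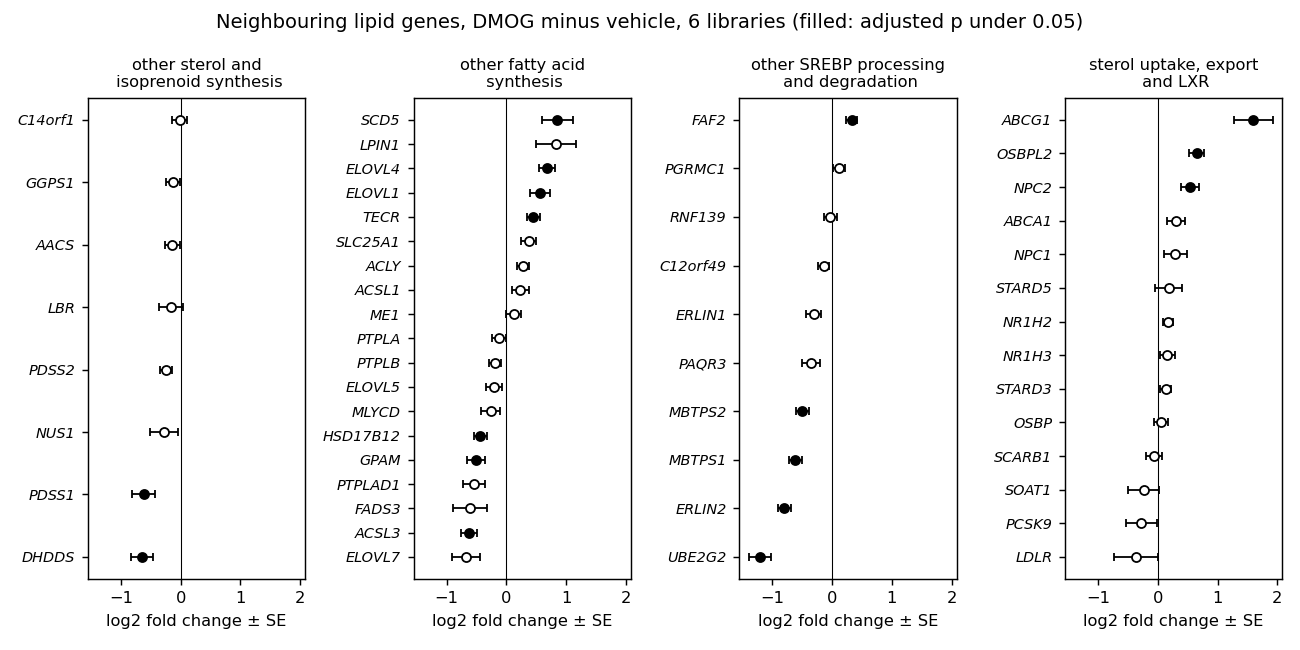
Log2 fold change ± SE over 6 libraries (x axis, DMOG minus vehicle) of the tested genes (y axis) of 4 neighbouring lists, a panel each. Filled points have an adjusted p under 0.05. ABCG1 at 1.60 and UBE2G2 at -1.21 lie farthest out, and the last panel holds no filled point left of 0.

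The authors' deposited table, made from the same 6 libraries, called 9 of the 31 genes higher (29.0%, against 18.8% of its 13424 genes) and 6 lower (19.4%, against 17.6%) at an adjusted p under 0.05. By the authors' deposited table, SQLE had a ratio of 2.08 (adjusted p = 3.44e-08), NSDHL 1.63 (6.63e-07), ELOVL6 0.468 (7.47e-07), SCAP 0.568 (1.64e-08) and ACACA 0.544 (2.84e-05), DMOG over vehicle. All 5 genes called higher and all 4 called lower by limma were called the same way in the authors' deposited table, which added SC5D, MSMO1, INSIG2 and EBP as higher and DHCR7 and FADS1 as lower. The sign of the log2 fold change was the same for all 31 genes. Both analyses rest on the same libraries, so the second is no independent check of the first.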

How the data were processed

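RNA of EPC2-hTERT cultures was sequenced in 8 libraries, 4 with DMOG and 4 with vehicle, grouped by the labelled treatment and numbered by their titles. The authors deposited RPKM values for 25369 genes, although the name of that table speaks of raw counts. The submitters' processing notes list HTSeq 0.6.1, Picard 1.129, SAMtools 1.3.1, Bowtie2 2.2.3.0, TopHat2 2.0.13, FastQC 0.11.5 and bcl2fastq, state no role or order for them, and mention GRCh38/hg38 as well as GRCh37/hg19. Chromosome names in the table are those of hg19. The sources used here do not say how strand or reads with several positions were handled. The authors' deposited table of their comparison holds, per the file headers, group means on a normalized signal scale, the ratio of these means with its log2 value, and p-values. Those means were recovered as weighted sums of replicates 1, 3 and 4 of each group, with a weight of 0 for replicate 2 and a largest relative misfit of 2.24e-08.

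RPKM times gene length gave whole reads for 100% of values within 0.01 reads. RPKM were divided by median-ratio factors over the 8 libraries. The 11122 genes that reached 1 RPKM in at least 4 libraries were tested with limma-trend on log2(scaled RPKM + 1), with robust empirical Bayes moderation (R 4.3.3, limma 3.58.1) and the group as the only term. P-values are two-sided and adjusted by Benjamini-Hochberg over all genes tested, with a threshold of 0.05. This scale understates the change of low genes. A fit over 8 and a fit over 6 libraries were made, and the script was tested on simulated data. The alternatives were RPKM as deposited, TMM factors, a pseudocount of 0.25, no filter, limma-voom on recovered reads, the replicate block, each library left out, median-ratio factors from the 6 libraries alone, and vehicle replicate 2 added. No alternative to the 6-library fit added DMOG replicate 2, so a call kept under all of them does not speak to that library.

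Replicate numbers come from the sample titles, which state no shared batch. Same-numbered libraries deviated together from their group means in the 6 libraries, with correlations of 0.466, 0.397 and 0.340. Each library correlated best with its own number. The numbers may thus pair these libraries, but so few libraries cannot settle it. The main calls over 6 libraries do not use this pairing, and the replicate block was an alternative that does. Over 8 libraries the correlations were 0.0730, -0.0203, 0.529 and 0.238, and libraries of replicates 1 and 2 did not correlate best with their own number.

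The 31 genes and all lists were chosen with earlier results of these data known. All 31 are named, as are the 3 called genes with the largest absolute fold change of each other list, and CA9 and ENO2 of the HIF list. Other genes were named after their values were seen, as stated beside them. Some genes of the other lists are not reported here and are left out of the lists' counts and medians. Promoters are RefSeq's, on GRCh38.p14, matched by symbol.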

Additional observations from a re-analysis of the deposited data

Results flagged for a closer look

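In each group of 4 libraries, the highest and the lowest value of each of the 31 genes was compared with its nearest neighbour, and in 5 of the 62 groups the gap took up more of the range than Dixon's 95% limit allows. Chance gives this in about 1 in 20 groups. Among DMOG libraries it was SCAP in replicate 2, at 19.7 scaled RPKM beside 10.9 to 11.9 in the other three. Among vehicle libraries, replicate 2 stood out for ACAT2, at 38.3 scaled RPKM beside 16.9 to 19.3, and for SQLE, at 66.0 beside 48.9 to 51.7. Vehicle replicate 3 stood out for LSS, at 11.0 beside 15.0 to 15.2, and for INSIG1, at 12.6 beside 7.97 to 8.75.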

How the results depend on the processing

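Over 8 libraries, 0 of the 31 genes and 0 of all genes were called in every alternative but that without DMOG replicate 2, which gave 7 genes higher and 6 lower, and 1731 and 1956 among all genes. Leaving out each library thus gave ranges of 0 to 7, 0 to 6, 0 to 1731 and 0 to 1956. Over 6 libraries (5 genes higher and 4 lower, 1541 and 1775 among all genes), RPKM as deposited gave 2 and 9, and 682 and 3836 among all genes. No filter gave 3 higher, and PMVK lost its call as lower. Leaving out each library in turn gave 2 to 7 genes higher and 2 to 6 lower, and 389 to 2265 and 497 to 2493 among all genes. The lower ends came without vehicle replicate 1 (2 and 2 genes, 389 and 497 among all genes) and vehicle replicate 4 (2 and 2, 477 and 550). Without vehicle replicate 3, 3 genes were called higher and PMVK lost its call as lower (893 and 989 among all genes). Without DMOG replicate 1, MVK, INSIG1 and PMVK lost their calls and EBP was added (498 and 602 among all genes). The cause was not tested. The fit with the replicate block gave 8 genes higher and 5 lower, and 2196 and 2297 among all genes, and changed no call of the 31 genes beyond EBP, SC5D, INSIG2 and SREBF1. No called gene of the 31 changed sign under any alternative. The differences of the INSIG2 to INSIG1 and SREBF1 to SREBF2 ratios kept their sign, with adjusted p above the threshold, from -0.40 to -0.08 and from -0.54 to -0.14. The paired test of these ratios (adjusted p = 0.125 over 8 libraries and 0.25 over 6), chosen after seeing the data, could not reach the threshold with so few pairs. Among the 31 genes, HSD17B7 had the fewest reads, 93 in a library, and counting error weighs most there. PDSS1, of the other lists, had as few as 16.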
